A study of Mus musculus with 2 samples.

Results

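Genes that carry out mitosis were compared between mammary epithelial cells of Cuzd1-null mice and of heterozygous littermates on day 18 of pregnancy. The list held 46 genes, and its members were the probe sets that the platform's gene table assigns to 1 of these symbols alone. Of the 46, 45 had such a probe set, out of 18193 genes named on the array. They were read by 108 probe sets. Ccnb1, the main cyclin of mitotic entry, had none and was not analysed here.

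The heterozygous control cells carry the Cuzd1-null allele on 1 chromosome, so both groups bear it, and no wild-type cells were measured. The null was made by homologous recombination in embryonic stem cells, and carriers were backcrossed until the background was largely C57BL/6, the strain given for both groups. Mouse age was not given in the sources used here. Inguinal glands of 5 mice per genotype were pooled, digested with hyaluronidase and collagenase and washed, with no sort or gate recorded, and each pool was hybridised to 1 array. There are thus 2 arrays and no replicates: no test was run, no p-value is given, and each difference below is one between these 2 pools. Cuzd1 itself read 32.4 units in heterozygous and 33.98 units in null cells, close to the median signal of each array (34.2 and 32.5 units), so it does not check the labels.

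Mitosis is driven by CDK1 bound to cyclins A and B, helped by the Polo and Aurora kinases. Condensed chromosomes are attached to the spindle through kinetochores, the spindle checkpoint holds anaphase until all are attached, and the anaphase-promoting complex then destroys securin and cyclin B. Most of these transcripts peak in G2 and M phase and are scarce in resting cells, so in a tissue extract their level follows mainly the share of dividing cells. In the pregnant gland, alveolar cells divide widely before they become secretory.

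Signal is given in the linear intensity units of the deposited MAS5 values, a measure per probe set that does not allow the levels of different genes to be compared. The brightest probe set, by the mean of both arrays, stands for each gene. A floor at each array's median (34.2 units for heterozygous and 32.5 units for null cells) replaced lower readings before null was divided by heterozygous signal on the log2 scale. A positive ratio means a higher signal in null cells. All 45 genes were above the floor on at least 1 array, and 43 on both. Where a gene lay under the floor in 1 pool, its fold is a bound, written "at least". As a scale for the ratios, a robust SD was taken over all measured genes of similar signal. It ran from 0.21 to 0.57 for the members and was wider for dim genes. It mixes real differences with noise and does not stand for replicate error.

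As a list, the mitosis genes were close to the array as a whole. Their median log2 ratio was 0.05 (quartiles -0.17 and 0.22), against 0.03 (quartiles -0.18 and 0.23) for all 11893 measured genes. For the 4228 measured genes with a mean signal between 72.3 and 261 units, the interquartile range of the members, the median was 0.08. The ratio was above 0 in 27 of 45 members, or 60.0%, against 54% of all measured genes and 59.4% of those of similar signal. No member was at least 2-fold apart. Of all measured genes, 1.12% were that much higher and 1.03% that much lower, together 2.15%. None of the members was at least 1.5-fold higher (background 5.83%). Past 1.5-fold on the lower side were 2 (background 4.93%), Ndc80 and Cenpe. The highest ratio was that of Kif11, at 1.43-fold. In 15 of 45 members the ratio lay more than 1 robust SD from the median of genes of similar signal, as it did in 32.6% of all genes. Of these 15, 8 were on the higher side. The shares above 0, at least 1.5-fold lower and beyond 1 robust SD are close to those of all genes or of genes of similar signal. The absence of members at least 1.5-fold higher or 2-fold apart was not tested against the backgrounds of 5.83% and 2.15%.

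**Figure D1:**
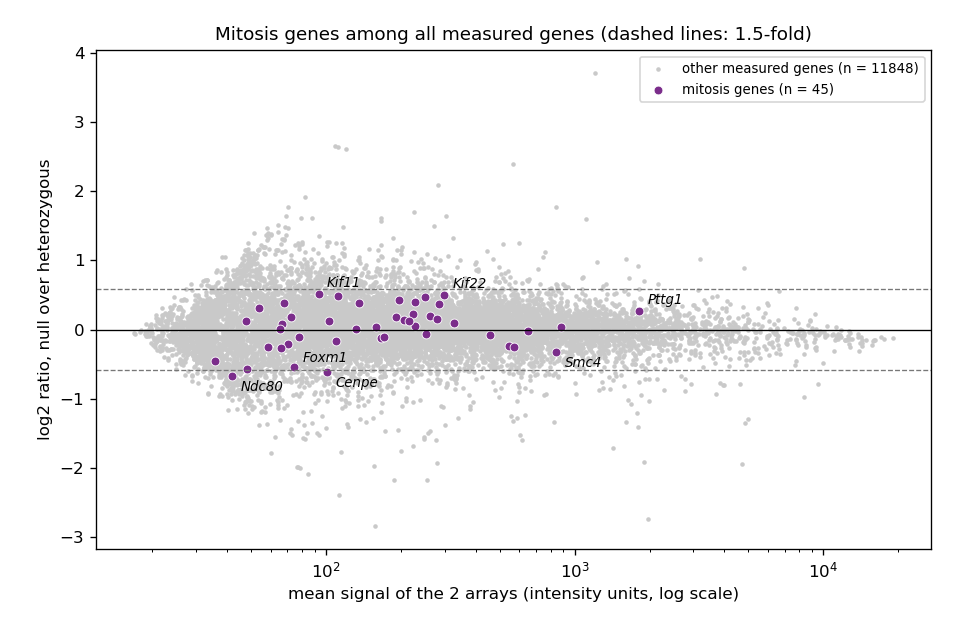
Log2 ratio of null over heterozygous signal (y axis) against the mean signal of the 2 arrays (x axis, intensity units, log scale) for 11893 measured genes, 1 point per gene. The 45 mitosis genes (purple) lie between -0.67 (Ndc80) and 0.51 (Kif11), inside the cloud of the other genes (grey), and 2 of them are below the lower dashed line at 1.5-fold.

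These ratios depend on how the arrays are scaled. The 9 probe sets for hybridization controls, by usual practice spiked in equal amounts, had a median ratio of -0.23. Scaling to them lifts each member by that amount. The median over genes that exceed both floors goes from 0.03 to 0.26. Members above 0 then numbered 35 of 45 (77.8%) against 79.6% of all genes. The 8 members that moved from below to above 0 were Cdk1, Ccna2, Plk1, Nek2, Hmmr, Ect2, Anln and Mki67, and 10 stayed below. With quantile normalization 26 were above 0, Aurka being the 1 member whose sign differed. Directions below are on the deposited scale, with the control-scale values of each group given beside them.

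Within the list, the functional groups did not move alike. In the kinesin group, the chromosomal passenger complex and the spindle checkpoint, all 15 members were above 0 on the deposited and quantile scales. Of all measured genes, 54.0% and 53.7% were above 0 on these scales. The control scale lifts every member, so it could not turn these directions. The kinesin group leaves out Cenpe, a kinesin counted with the kinetochore genes, which was lower (-0.61, and -0.38 on the control scale). With ratios centred on the median of genes above both floors, 13 of the 15 were above 0, and Kif4 (-0.02) and Bub3 (-6.9e-05) lay just below it. Set against the median of genes of similar signal, 13 of the 15 were above it, and Kif4 and Aurkb below. Most members of the kinetochore, of the anaphase-promoting complex group and of the CDK1 group were lower on the deposited scale. In the CDK1 group these include Ccna2 and Cdc25c, whose probe sets lay on both sides of 0. On the control scale 3 of its 5 genes were above 0. The groups hold 2 to 6 genes each, and no test sets them apart from other genes of the array.

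**Figure D2:**
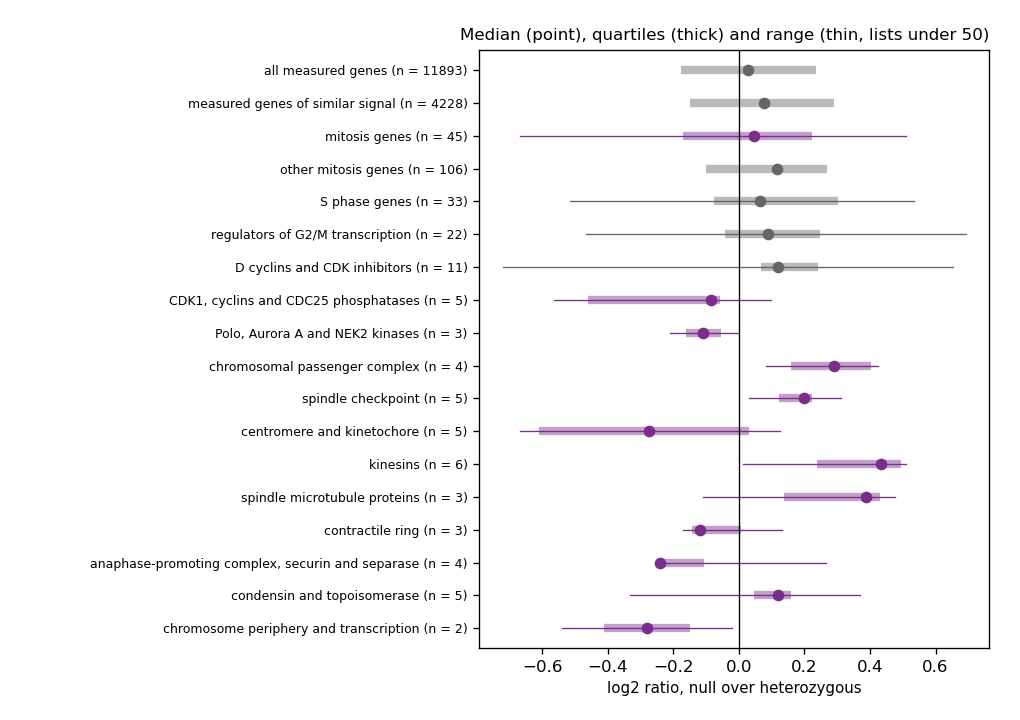
Log2 ratio of null over heterozygous signal (x axis, deposited scale) for gene lists, with points for medians, thick bars for quartiles and thin lines for the full range of lists under 50 genes; n is the number of measured genes. The whole mitosis list (median 0.05) sits beside all measured genes (0.03), while its groups (purple) spread from kinesins (0.43) to the chromosome periphery and transcription group (-0.28) and the kinetochore group (-0.27); on the hybridization-control scale each group is 0.23 higher, and the medians of the CDK1, Polo and contractile ring groups are then above 0.

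The promoters of the members share letters that the choice of members did not use. The RefSeq table of GRCm38.p6 gives windows of 300 bases, from 250 before to 50 after a start site, and held 41 windows for 38 of the 46 genes, Ccnb1 among them. Bub3, Ect2 and Prc1 each have 2 windows, which overlap. Each was searched on both strands for CCAAT, the letters bound by NF-Y, for TTTGAA or TTCGAA, forms of the cell cycle homology region bound by the MuvB complexes of G2 and M phase genes, and for GGCGG. Of these, TTCGAA is its own reverse complement, and none of the motifs contains another. CCAAT occurred in 33 of 41 windows (80.5%) against 37.4% of all 32851 windows, and at least 2 copies in 22 (53.7%) against 11.7%. TTTGAA or TTCGAA occurred in 33 (80.5%) against 19.2%. Both occurred together in 30 (73.2%) against 7.52%. GGCGG occurred in 38 (92.7%) against 48.8%. The members' windows were richer in G and C (median 59.0%) than all windows (52.7%). Among the 8719 windows of 54.3% to 64.3% G and C, the quartiles of the members, 37.6% held CCAAT, 12.6% TTTGAA or TTCGAA and 74% GGCGG. Of the 74 CCAAT copies counted in the members' windows, 63.5% began in the 100 bases before the start, against 43.6% of all copies in the table. A copy in overlapping windows, as in Bub3, Ect2 and Prc1, counts once per window.

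The 150 bases before the start are shown for 8 members, chosen by the brightest probe set on the deposited scale. Kif11, Kif22 and Top2a are examples of a higher signal in null cells, Cdk1 and Ccnb2 of a ratio near 0. Cdc20, Cenpe and Ndc80 are examples of a lower signal. A dim probe set of Top2a lay below 0 (-0.10). On the control scale Cdc20 was at -0.004, Cdk1 at 0.14 and Ccnb2 at 0.32. Kif11 is at chr19:37376232-37376381 on the plus strand, Kif22 at chr7:127042421-127042570 on the minus strand and Top2a at chr11:99024190-99024339 on the minus strand. Cdk1 is at chr10:69352913-69353062 on the minus strand, Ccnb2 at chr9:70421555-70421704 on the minus strand and Cdc20 at chr4:118437344-118437493 on the minus strand. Cenpe is at chr3:135212413-135212562 on the plus strand and Ndc80 at chr17:71526858-71527007 on the minus strand. Capitals mark CCAAT and TTTGAA or TTCGAA, in either orientation, 5′ to 3′ on the strand of the gene:
Kif11: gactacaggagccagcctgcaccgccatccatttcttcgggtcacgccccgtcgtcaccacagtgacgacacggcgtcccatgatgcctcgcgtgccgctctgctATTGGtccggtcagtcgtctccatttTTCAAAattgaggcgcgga
Kif22: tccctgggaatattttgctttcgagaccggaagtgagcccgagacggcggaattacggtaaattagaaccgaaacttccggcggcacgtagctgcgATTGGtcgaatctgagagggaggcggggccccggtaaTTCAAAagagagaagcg
Top2a: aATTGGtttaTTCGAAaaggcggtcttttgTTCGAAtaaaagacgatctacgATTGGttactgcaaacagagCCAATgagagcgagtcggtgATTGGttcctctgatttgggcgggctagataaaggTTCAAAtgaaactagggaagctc
Cdk1: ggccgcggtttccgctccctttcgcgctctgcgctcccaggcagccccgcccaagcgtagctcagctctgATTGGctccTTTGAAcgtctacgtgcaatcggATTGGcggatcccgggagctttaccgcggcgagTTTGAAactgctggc
Ccnb2: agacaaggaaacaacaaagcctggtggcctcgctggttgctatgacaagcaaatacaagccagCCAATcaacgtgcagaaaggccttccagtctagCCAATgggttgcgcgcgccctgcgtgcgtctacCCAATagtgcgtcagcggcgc
Cdc20: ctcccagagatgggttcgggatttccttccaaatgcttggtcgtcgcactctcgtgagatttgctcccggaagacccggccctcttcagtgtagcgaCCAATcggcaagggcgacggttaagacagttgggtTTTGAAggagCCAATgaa
Cenpe: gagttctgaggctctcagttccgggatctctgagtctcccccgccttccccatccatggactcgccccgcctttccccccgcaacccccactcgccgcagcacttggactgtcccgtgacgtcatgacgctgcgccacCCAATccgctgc
Ndc80: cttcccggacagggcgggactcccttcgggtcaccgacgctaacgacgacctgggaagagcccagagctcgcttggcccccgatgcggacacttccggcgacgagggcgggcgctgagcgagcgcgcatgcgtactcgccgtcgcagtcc

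Counted back from the start, Kif11 has its CCAAT copy at -45 and its TTTGAA copy at -19, both in reverse orientation. Kif22 has the same pair at -54 and -17. Cdc20, with a lower signal in null cells on the deposited scale, carries CCAAT at -53 and -8 and TTTGAA at -18. In Ndc80 none of these letters lies in the stretch shown. The ratios of members with and without the letters overlapped: the 27 measured members with both motifs had a median of 0.10 (-0.46 to 0.51, 18 above 0) and the 10 without both -0.04 (-0.67 to 0.39, 5 above 0).

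The CDK1 group opens mitosis. Cdk1, its catalytic subunit, read 471 units in heterozygous and 444 units in null cells, a ratio of -0.09. Ccna2, cyclin A2, read 258 and 248 units (-0.06), while its other probe set read 167 and 212 units (0.34). Ccnb2, cyclin B2, read 315 and 337 units (0.10). At their brightest probe sets these 3 genes differed by 1.07-fold or less.

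The CDC25 phosphatases, which strip the inhibitory phosphates from CDK1, were dim. Cdc25b read 44.7 units in heterozygous cells and 27.0 units, under the floor, in null cells, at least 1.37-fold lower. Cdc25c read 57.4 and 38.8 units (-0.56), but its other probe set was under the floor in heterozygous cells and read 51.9 units in null cells, at least 1.51-fold higher. For Cdc25c no direction can be read. The group's median of -0.09 over 5 genes became 0.14 on the control scale.

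Among the kinases that act with CDK1, Plk1, the Polo-like kinase of centrosomes and kinetochores, read 81.0 and 75.1 units (-0.11). Aurka, the Aurora kinase of the spindle poles, read 132 units on both arrays (0.00). Nek2, which separates centrosomes, read 75.4 and 65.2 units (-0.21), and its other measured probe set 75.7 and 51.0 units (-0.57). On the control scale these 3 brightest probe sets had ratios from 0.02 to 0.23.

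Foxm1, the forkhead factor that activates many G2 and M phase genes, was lower at both measured probe sets on every scale tried. It read 88.3 and 60.8 units, a ratio of -0.54 (-0.31 on the control scale), and the other probe set read 54.6 and 37.0 units (-0.56). The robust SD among genes of similar signal was 0.44. Mki67, the Ki-67 antigen that coats mitotic chromosomes and serves as the standard marker of dividing cells, read 656 and 647 units (-0.02, and 0.21 on the control scale). The signal of this marker thus differed by 1.01-fold between the pools on the deposited scale.

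**Figure D3:**
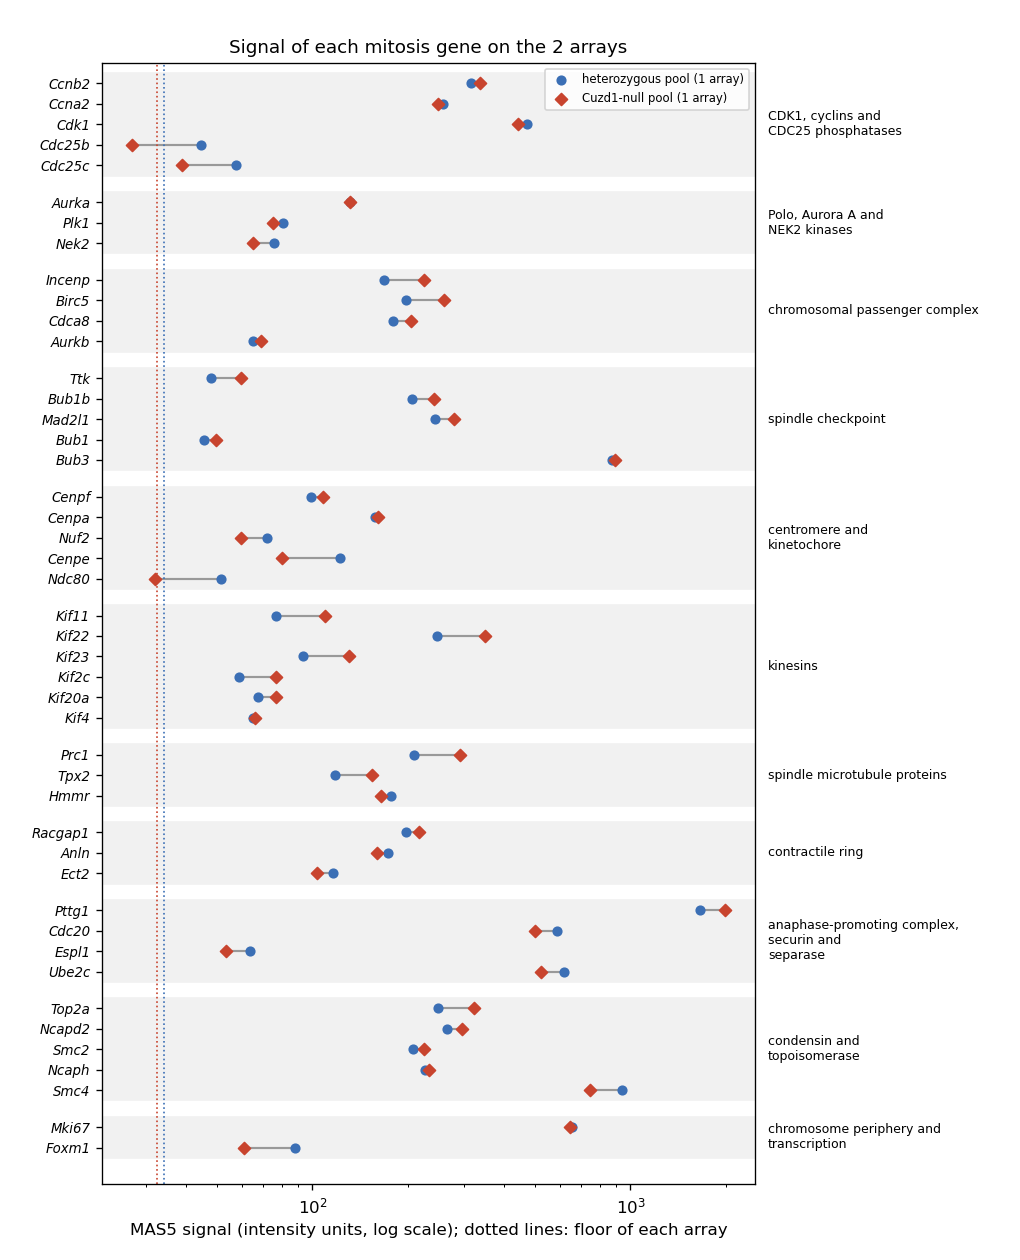
MAS5 signal (x axis, intensity units, log scale) of 45 mitosis genes on the heterozygous (blue circles) and the null array (red diamonds), 1 array each without error bars, by functional group. Genes of the kinesin, passenger and checkpoint groups have the diamond on the right on the deposited scale, the only scale drawn. These groups keep that direction on the quantile scale, and Kif4 and Bub3 lie just below a ratio of 0 when ratios are centred. The control scale lifts all ratios and could not turn them. Ndc80 and Cdc25b have the diamond at or left of the floor (dotted lines at 34.2 and 32.5 units).

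Chromosome condensation was served by genes with ratios on both sides of 0. Top2a, the topoisomerase that untangles sister chromatids, read 248.9 and 322 units (0.37), while a dim probe set read 35.0 units, just above the floor, in heterozygous and 18.6 units, under it, in null cells. Smc2, an ATPase core of condensin, read 207 and 225 units (0.12), and its other measured probe set 27.1 units, under the floor, and 37.3 units, at least 1.09-fold higher. Its partner Smc4 read 938 and 746 units (-0.33), with -0.43 at one further probe set (117 and 86.4 units) and 0.08 at another (520.1 and 550.5 units).

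The subunits Ncapd2 and Ncaph belong to condensin I. Ncapd2 read 264 and 295 units (0.16). Ncaph read 225 and 232 units (0.05), and its dimmer probe set 59.0 and 92.1 units (0.64). The group's median was 0.12 over 5 genes, with 4 above 0, and 0.35 on the control scale.

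The chromosomal passenger complex corrects faulty attachments and later guides cytokinesis. It was higher in all 4 subunits on the deposited and quantile scales, where 54.0% and 53.7% of all measured genes were, and when centred. Against the median of genes of similar signal, 3 of 4 were above, and Aurkb lay just under it. All 9 measured probe sets were above 0 on the deposited scale, where 51.8% of all measured probe sets were. Incenp, the scaffold, read 168 and 225 units (0.43), and 0.24 and 0.49 at its other measured probe sets. Birc5, survivin, read 197 and 259 units (0.39). Both lay more than 1 robust SD (0.30 and 0.25) above genes of similar signal.

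Cdca8, borealin, and the kinase Aurkb made up the rest of the complex. Cdca8 read 179 and 203 units (0.18), with 0.16 and 0.05 at its other probe sets. Aurkb read 64.9 and 68.7 units (0.08), while its dimmer probe set read 35.3 and 58.4 units (0.73). The median over the 4 subunits was 0.29, and 0.26 after quantile normalization.

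The spindle checkpoint, which delays anaphase, was above 0 in each of its 5 members on the deposited and quantile scales, by small amounts. Of all measured genes, 54.0% and 53.7% were above 0 on these scales. When centred, 4 of the 5 members were above 0. Ttk, the MPS1 kinase that starts the signal, read 48.1 and 59.6 units (0.31). Bub1b, BUBR1, read 206 and 241 units (0.22), and 127 and 192 units (0.60) at its other measured probe set. Mad2l1, MAD2, which binds and restrains CDC20, read 243 and 279 units (0.20).

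Bub1, the kinase that recruits the other checkpoint proteins, read 45.6 and 49.7 units (0.12). Bub3, their WD-repeat partner, read 874 and 893 units (0.03) and -0.03 at a dimmer probe set. The median of all measured genes was also 0.03. None of the 5 was more than 1 robust SD from genes of similar signal, so the group's ratios were ordinary in size.

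The centromere and kinetochore group held the lowest ratios of the list. Ndc80, which binds microtubules in the outer kinetochore, read 51.6 units in heterozygous cells and 32.0 units, under the floor, in null cells, at least 1.59-fold lower. Nuf2, which pairs with NDC80 in the same complex, read 71.9 and 59.5 units (-0.27). Cenpe, the kinesin that carries chromosomes to the spindle equator, read 122 and 80.3 units, 1.52-fold lower (-0.61, with a robust SD of 0.39). These 3 genes had 1 measured probe set each, and all stayed below 0 on the control scale, at -0.44, -0.05 and -0.38.

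The other kinetochore members, Cenpa and Cenpf, were above 0 at their brightest probe sets on the deposited scale. Cenpa, the histone variant that marks centromeres, read 157 and 160.5 units (0.03), under the median of 0.08 for genes of similar signal. Cenpf read 98.6 and 108 units (0.13), while its dimmer probe set read 42.5 units in heterozygous cells and 23.2 units, under the floor, in null cells, at least 1.31-fold lower. No direction can be read for Cenpf. The group's median was -0.27 over 5 genes, and -0.05 on the control scale.

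Kinesins, the motors that build the spindle and move chromosomes, had the highest group median at the brightest probe sets, 0.43 over 6 genes (with the median of all measured probe sets, 0.34 against 0.40 for the passenger complex), and were above 0 at all 12 measured probe sets (background 51.8%). Cenpe, a kinesin described with the kinetochore genes, is not among these 6 and was lower (-0.61). Kif11, the Eg5 motor that pushes spindle poles apart, read 77.0 and 109.7 units, 1.43-fold higher. Its 3 probe sets gave 0.51, 0.53 and 0.48. Kif22, a motor on chromosome arms, read 247 and 349 units, 1.41-fold higher, with 0.43 at another probe set. Its dimmest probe set read 33.5 units, under the floor, and 54.1 units, at least 1.58-fold higher.

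Kif23, the motor of the central spindle, read 93.2 and 130.0 units, 1.39-fold higher at its 1 measured probe set. Kif2c, which dismantles microtubule ends at centromeres, read 58.6 and 76.8 units (0.39), with 0.21 and 0.10 at its other measured probe sets. Kif20a, which works in cytokinesis, read 67.6 and 77.0 units (0.19), and Kif4, a chromosome-arm motor, 65.2 and 65.7 units (0.01). Kif11, Kif22 and Kif23 lay more than 1 robust SD (0.39, 0.28 and 0.37) above genes of similar signal. Of 6 kinesins outside the list, 4 were measured, all of them dim. Kif20b had 0.07 and Kif18b 0.06. Kifc1, under the floor in heterozygous cells, was at least 1.35-fold higher, and Kif18a, under the floor in null cells, at least 1.07-fold lower.

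**Figure D4:**
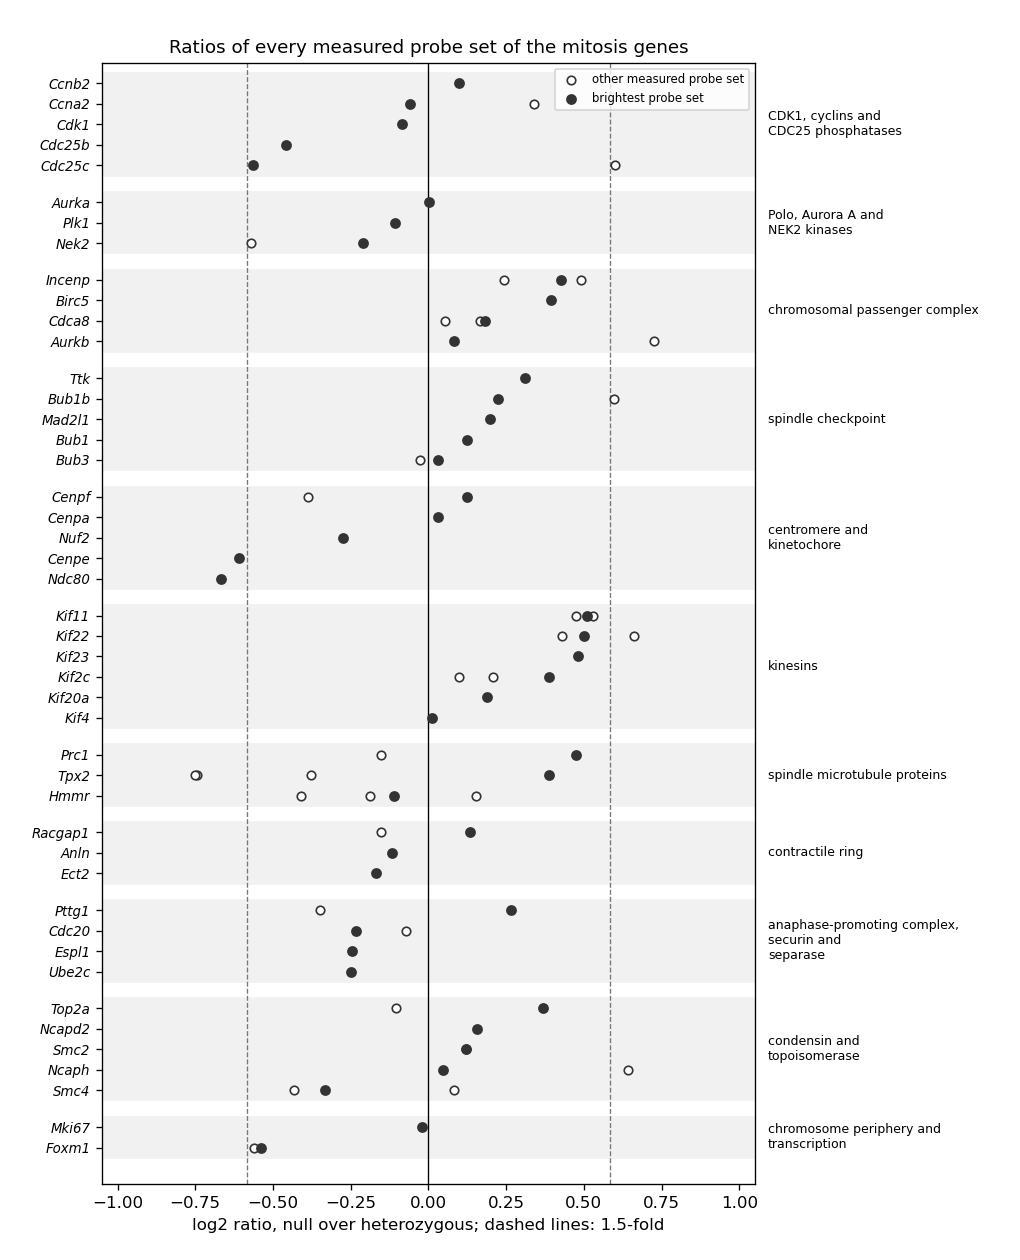
Log2 ratio of null over heterozygous signal (x axis, deposited scale) for each of the 78 measured probe sets of the mitosis genes, by functional group; filled points are the brightest probe set of a gene, open points the others, and dashed lines mark 1.5-fold. The 3 probe sets of Kif11 lie together (0.48 to 0.53), whereas those of Tpx2 spread from -0.75 to 0.39.

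The proteins that organise spindle microtubules gave conflicting probe sets. Tpx2, which activates Aurora A and nucleates microtubules, read 117 and 153 units (0.39) at its brightest probe set. Its 3 others read lower in null cells, with ratios of -0.38, -0.74 and -0.75. Prc1, which bundles the central spindle, read 209 and 291 units (0.48), but 81.1 and 73.0 units (-0.15) at its other probe set.

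Hmmr, a spindle assembly factor, read 177 and 164 units (-0.11) and ranged from -0.41 to 0.15 over 4 measured probe sets. The group's median of 0.39 over brightest probe sets was 0.61 on the control scale and became -0.15 when each gene took the median of its measured probe sets. No direction can be given for these genes.

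Across the list, 23 members had at least 2 measured probe sets. In 9 all were above 0 (Aurkb, Incenp, Cdca8, Bub1b, Kif2c, Kif11, Kif22, Smc2 and Ncaph), in 3 all were below (Nek2, Cdc20 and Foxm1) and in 11 they lay on both sides. The 12 in accord are 52.2% of 23, against 51.0% of the 5418 genes of the array with several measured probe sets. Where the 2 brightest probe sets of a gene both exceeded the floors, the difference of their ratios gave a robust SD for a single probe set of 0.30 over 19 members and 0.21 over 4722 genes. At the brightest probe set, 22 of 45 members had a ratio within 0.2 of 0.

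The anaphase-promoting complex group ends mitosis. Cdc20, its mitotic activator, read 586 and 499.5 units (-0.23), and 335 and 319 units (-0.07) at its other measured probe set. Ube2c, the ubiquitin-conjugating enzyme that works with it, read 619.9 and 522 units (-0.25). Espl1, separase, which cuts the cohesin ring, read 63.5 and 53.5 units (-0.25). On the control scale these 3 ratios were -0.00, -0.02 and -0.02.

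Pttg1, securin, the inhibitor of separase, read 1650.0 and 1984 units (0.27) at its brightest probe set, but 416 and 327 units (-0.35) at another. Its probe sets disagreed by 0.61, and no direction is given. The group's median was -0.24 over 4 genes and -0.01 on the control scale.

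Genes of the contractile ring, which divides the cell, were near 0. Racgap1, the partner of KIF23 in the centralspindlin complex, read 197 and 216 units (0.13) and -0.15 at its other measured probe set. Ect2, the exchange factor that switches on RhoA at the equator, read 116 and 103 units (-0.17). Anln, anillin, the scaffold of the ring, read 173 and 160 units (-0.12). The group's median of -0.12 became 0.11 on the control scale.

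A wider list of 119 other mitosis genes, chosen by role, was measured for 106. Its median was 0.12 (quartiles -0.10 and 0.27). In 68 of 106 (64.2%) the ratio was above 0, against 54% of all measured genes and 59.4% of those in the members' signal range. Past 1.5-fold were 6 on the higher side (background 5.83%) and 5 on the lower side (background 4.93%), and 1 gene was 2-fold apart. This was Cenpq, a subunit of the inner kinetochore, at 167 and 79.9 units, 2.10-fold lower at its 1 measured probe set. Other kinetochore, centromere and checkpoint genes had a median of -0.03 over 32, with 15 (46.9%) above 0. On the control scale the median was 0.20 with 26 above 0, where 79.6% of all genes were above 0. On the deposited scale, 4 were past 1.5-fold in each direction (backgrounds 5.83% and 4.93%).

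Other kinesin, spindle and centrosome genes had a median of 0.23 over 22 (0.45 on the control scale). Of these, 18 were above 0 (81.8%, against 54% of all measured genes). Cep192, a centrosome scaffold, had the highest ratio, at 57.5 and 102.8 units (0.84). Ckap2l, a spindle protein, had the lowest, at 170.2 and 130 units (-0.39), with 0.78 at its other probe set. The subunits and regulators of the anaphase-promoting complex outside the list had a median of 0.18 over 15 (0.41 on the control scale). Of these, 14 were above 0 (93.3%, background 54%). The median was opposite in sign to that of the group of Cdc20, Ube2c and Espl1 on the deposited scale. Anapc11, the RING subunit of the complex, read 206 and 291 units (0.50), and Ube2s, which extends ubiquitin chains, 2234 and 1964 units (-0.19).

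Other cyclins and kinases had a median of -0.11 over 13, and of 0.11 on the control scale. Pkmyt1, an inhibitory kinase of CDK1, read 127 and 78.8 units (-0.69), and Melk, a kinase of dividing cells, 78.6 and 107 units (0.45). Condensin and cohesin genes had 0.06 over 13 (0.29 on the control scale), from 0.33 for Ncapg2 to -0.18 for Wapl, whose other probe sets gave 0.18 and -0.59. Cytokinesis genes had 0.02 over 11 (0.35 on the control scale, where another probe set of Cdca2 is the brightest), from 0.44 for Myh9, a non-muscle myosin, to -0.22 for Cit, citron kinase. The other 4 probe sets of Myh9 ran from -0.24 to 0.09.

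Lists for the phases around mitosis had medians above 0, as did all measured genes (0.03) and those in the members' signal range (0.08). On the control scale the median over genes above both floors was 0.26. S phase genes had a median of 0.07 over 33 measured (0.29 on the control scale). Of these, 21 were above 0 (63.6%, against 54% of all measured genes and 59.4% of those in the members' signal range). Ratios ran from 0.53 for Mcm5, a subunit of the replicative helicase, to -0.52 for Gins3, which activates that helicase. The other probe set of Gins3, under the floor in heterozygous cells, was at least 1.15-fold higher. Regulators of G2 and M phase transcription had 0.09 over 22 (0.33 on the control scale, where another probe set of E2f5 is the brightest). E2f7, a repressor, had 0.69 (38.2 and 61.7 units), and Nfyb, a subunit of the CCAAT-binding factor NF-Y, -0.47 (255 and 185 units), with -0.62 at its other probe set. D cyclins and CDK inhibitors had 0.12 over 11 (0.35 on the control scale). Cdk4, the G1 kinase, read 566 and 890.4 units (0.65, and up to 0.85 at its other measured probe sets). Cdkn1a, the p21 inhibitor, read 497 and 302 units (-0.72, and -0.57 at its other measured probe set). On the control scale, which lifts all ratios, Cdk4 had 0.88 and Cdkn1a -0.49.

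The cells were not sorted, and markers of other cell types differed between the pools. In a bulk extract, fewer cells of a type and less RNA per cell cannot be told apart. Of all measured genes, 54% were above 0. Over 10 fibroblast markers, all measured and all above 0, the summed signal was 7556 units in heterozygous and 11458 units in null cells. Over 10 endothelial markers, also all above 0, it was 1835 and 2595 units. The 7 measured of 10 B and plasma cell markers were all above 0, and the sum over 9 genes was 462 and 3040.2 units, of which Ighm gave 172 and 2252 units, with Blk and Cd79b under the floor on both arrays.

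Epithelial markers differed less in their sums, which bright genes dominate. Over 12 luminal markers the sum was 53336 and 55735 units, with 8 of 11 measured above 0 and Prom1 under both floors. Over 10 myoepithelial markers it was 26671 and 24747 units, with 3 above 0, and Acta2 gave 12211 and 11312 units of it. Single myoepithelial ratios ran from -0.69 (Krt14) to 0.53 (Trp63). Median ratios were 0.22 for luminal and -0.07 for myoepithelial markers. They were 0.59 for fibroblast, 0.40 for endothelial and 0.81 for B and plasma cell markers. Myeloid markers summed to 12942 and 15187 units (8 of 10 above 0), and T and NK cell markers to 321 and 426 units (4 of 5 measured above 0, with Cd3d, Cd3e and Cd4 under both floors). Adipocyte markers summed to 7599 and 6888 units (1 of 7 measured above 0, Cidec under both floors), and erythroid markers to 121 and 147 units (1 of 3 measured above 0, Hba-a1 and Slc4a1 under both floors). Dividing cells of each of these types can carry mitosis transcripts, and the part of cell composition in the members' ratios was not tested.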

How the data were processed

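Total RNA of mammary epithelial cells, 5 mice pooled per genotype, was hybridised to 1 array per genotype (Affymetrix 3′ arrays of 45101 probe sets). The deposited values are linear signal intensities. The authors computed them by MAS5 (Affymetrix Expression Console 1), per the submitters' processing notes. A genome build was not given in the sources used here. Their trimmed mean (2% off each end) was 150.0 units on both arrays, and the number of arrays limits the precision. The actin 3′ to 5′ ratio was 1.27 and 1.24.

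Probe sets with 1 gene symbol (34958) were named from the platform table, with symbols updated through Entrez IDs in RefSeq (GRCm38.p6). The 932 with several symbols, 1 of which includes Foxm1, and 9160 not listed were left out. Python 3.11.15, numpy 2.4.6 and pandas 2.3.3 computed floors, ratios, medians and the robust SD (scaled median absolute deviation) within 20 bins of signal. Steps were tested on simulated data. With 1 array per genotype there is no test, and counts use folds of 1.5 and 2.

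Members with values in full were the 8 highest and 8 lowest ratios, those at least 1.5-fold apart, those at a floor, the member with the highest mean signal of each group and those whose probe sets disagree by over 0.3. From other lists came the genes at least 2-fold apart or else the highest and lowest above both floors. The remaining members given, the kinesins outside the list and the promoters shown were chosen after values were seen. The members and lists were chosen with earlier results of these data known. Alternatives varied the floor, the scaling and the choice of probe set. No protein sequences were used here.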

Additional observations from a re-analysis of the deposited data

How the results depend on the processing

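The list's median stayed between 0.01 and 0.27 over 11 alternatives. It was 0.27 with hybridization control scaling, where 9 members were past 1.5-fold on the higher side and 0 on the lower, because all ratios are lifted. A 75th percentile floor kept 25 members, 17 of them above 0 and 0 at least 1.5-fold lower. With a pseudocount of 16 in place of the floor, 0 were at least 1.5-fold lower, and with members under either floor left out, Ndc80 among them, 1 was. Leaving out probe sets ending in _s_at and _x_at gave 3 members at least 1.5-fold higher. The second brightest probe set, present for 23 members, gave 13 above 0, 5 at least 1.5-fold higher and 0 lower. It turned the sign of 11 of these 23 (47.8%), against 36.1% of the 5412 genes of the array with one, and 11 of 16 among members described in full, a group chosen in part because probe sets disagree. The sign turned with the median of all probe sets in 6 of 27. No member was 2-fold apart under any of the 11. The medians of kinesins (0.34 to 0.66), passenger complex (0.24 to 0.52) and checkpoint (0.17 to 0.43) stayed above 0 under all 11, while that of the kinetochore group ran from -0.39 to 0.03. Some of these medians rest on 1 gene. The kinetochore ends are Cenpf alone with the second brightest probe set (-0.39) and Cenpa alone at the 75th percentile floor (0.03). At that floor the kinesin value is Kif22 alone (0.50). No paired analysis was possible because each genotype has 1 array and no result comes from a test. No array could be left out. MAS5 signals near the floor are mostly background, which limits the dim members most.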
